A study of Mus musculus with 4 samples.

Results

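The 35 genes described here encode the machinery that brings proteins into mitochondria and folds them there, together with Romo1. They were chosen by gene symbol, as a named set of import and folding genes, with the ratio of Chd1-/- over Control cells within each set, against genes of similar level, already known. All 35 were found once in each of the tables, among 11728 genes named once in both, and all 35 passed the filter that left 10261 genes for testing (the 4 libraries averaging 1 FPKM or more). Because the ratio between the genotypes took part in choosing these genes, their ratios are given as a description, with no test.

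RNA was measured in mouse embryonic stem cells, which grow from the early embryo's pluripotent cells, with a tamoxifen-inducible Cre recombinase at the ubiquitously active Rosa26 locus, a floxed Chd1 allele and a null Chd1 allele (Rosa26CreER;Chd1fl/-). Chd1-/- cells had received 1 µM tamoxifen for 48 to 72 h and Control cells ethanol, so Control cells still carried a single functional Chd1 allele, and both groups then grew for 3 to 5 passages without tamoxifen in medium with 15% serum and LIF. Each of 2 sets holds 1 Chd1-/- and 1 Control library (n = 2 per group), made from rRNA-depleted total RNA of equal cell numbers with ERCC spike-in RNA. An amount of 1 µg of RNA is recorded for every library. The labels speak of independently derived lines but do not tie a line to a set, and say nothing of clones. Values were taken as FPKM (fragments scaled to transcript length and to sequencing depth), a unit that was inferred because the headers give none. How the spike-ins entered that scaling is not given in the sources used here, so a lower FPKM is not by itself a lower amount per cell.

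Nearly all mitochondrial proteins are made in the cytosol and imported. The outer membrane translocase (TOM) receives them, and they are then sorted to the outer membrane by the sorting and assembly machinery, to the intermembrane space by a disulfide relay, to the inner membrane by the TIM22 or TIM23 translocase, or through TIM23 into the matrix, where a motor built on the chaperone Hspa9 pulls them in. In the matrix a peptidase removes the targeting presequence, and the chaperonin Hspd1 with its lid Hspe1 folds many of the arriving proteins.

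The start regions of 3 genes are shown first, because Romo1 was the gene of this group with higher values in both sets, and because Hspd1 and Hspe1 lie head to head and were the 2 most abundant. They are taken from RefSeq on GRCm38.p6 (the deposited tables were made on mm9), run 5′ to 3′ on the gene's own strand, and span 250 bases before and 50 bases after the annotated start. Capitals mark matches, on either strand, to GCGCNNGCG, the letters of NRF1 sites, to CCGGAAG, those of ETS factors, and to the box CCAAT. They also mark GAANNTTC, the head-to-head spelling of a heat shock element, and TTCNNGAA, the tail-to-tail one. Overlapping matches merge into a single run of capitals.
Romo1, chr2:156143983-156144282, plus strand: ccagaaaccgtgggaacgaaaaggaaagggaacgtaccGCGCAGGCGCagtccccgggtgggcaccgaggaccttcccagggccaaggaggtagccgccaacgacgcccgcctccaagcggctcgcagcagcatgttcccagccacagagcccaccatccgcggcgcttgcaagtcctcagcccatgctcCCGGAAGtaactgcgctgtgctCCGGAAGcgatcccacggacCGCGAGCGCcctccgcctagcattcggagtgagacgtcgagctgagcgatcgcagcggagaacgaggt
Hspe1, chr1:55087898-55088197, plus strand: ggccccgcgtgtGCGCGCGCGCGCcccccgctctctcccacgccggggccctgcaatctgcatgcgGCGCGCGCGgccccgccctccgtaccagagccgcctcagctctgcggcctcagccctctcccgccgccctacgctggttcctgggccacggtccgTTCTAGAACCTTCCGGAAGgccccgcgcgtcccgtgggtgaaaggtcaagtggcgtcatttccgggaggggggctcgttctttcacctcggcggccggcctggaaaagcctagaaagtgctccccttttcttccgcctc
Hspd1, chr1:55088194-55088493, minus strand: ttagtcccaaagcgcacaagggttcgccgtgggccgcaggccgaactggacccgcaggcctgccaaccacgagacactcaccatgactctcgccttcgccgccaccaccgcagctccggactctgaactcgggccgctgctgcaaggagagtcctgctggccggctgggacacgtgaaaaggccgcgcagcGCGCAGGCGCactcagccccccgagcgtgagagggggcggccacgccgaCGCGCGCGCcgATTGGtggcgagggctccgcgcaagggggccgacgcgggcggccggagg

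Romo1 held matches to the NRF1 and the ETS letters. Hspe1 held both of these and both heat shock spellings. In the Hspe1 run of capitals that joins them, each ETS match shares 6 bases with a tail-to-tail heat shock match, so these are not separate stretches. Hspd1 has another annotated start, whose window shares 285 bases with that of Hspe1, the ETS and heat shock matches included. The window printed for Hspd1 had NRF1 letters and a CCAAT box. A match of letters describes the sequence only.

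Of the 35 genes, 32 had a window in the table, with 35 windows in all; Hspa9, Tomm40l and Tomm7 had none. The Hspd1 window that lies on the Hspe1 window was left out of the shares, so that their common stretch counted once. That left 34 windows for 32 genes, so some genes still counted with more than 1 window. Other windows, and those of the tested genes, were not checked for overlap. Of the 10261 tested genes, 7780 had a window, and shares of tested genes rest on those. The ETS letters stood in 41.2% of the 34 windows, against 19% of windows of tested genes and 8.86% of all 32851 windows. The NRF1 letters stood in 35.3%, against 25.8% and 12.1%, and the tail-to-tail heat shock letters in 17.6% (6 windows), against 6.54% and 8.52%. Hspe1, Timm10 and Tomm22 were among the genes with both the ETS and the tail-to-tail letters, so these shares rest partly on the same genes. The CCAAT box was in 29.4%, against 38.4% and 37.4%. Matches to AAGATGGCG (YY1) were found in 8.82% of the genes' windows (3 windows) and in 3.31% of those of tested genes. Those to GAANNTTC were in 5.88% (2 windows) and 5.61%. TCAAGGTCA (ESRRB) and TGACGTCA (CREB) were matched in 1 window each (2.94%), against 0.291% and 3.37%, so these shares rest on single windows. The median GC content was 60% in all 35 windows of the import genes and 61.3% in those of all tested genes. Genes with the ETS letters included the receptors Tomm22 and Tomm70a, the translocase gene Timm23, and both subunits of the presequence peptidase. No test was made on these shares.

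Chd1, the deleted gene and a chromatin remodeler, stood at 5.71 and 8.52 FPKM in Chd1-/- cells of sets 1 and 2, against 27.6 and 17.9 FPKM in Control cells (limma log2 fold change -1.66, SE 0.25, adjusted p = 1.8e-08, n = 2 pairs). That call was lost without the set block (limma adjusted p = 0.46) and with a common prior variance (limma adjusted p = 0.29). The labels do not name the deleted exons. Summed FPKM over all loci were 466994 and 518032 in Chd1-/- libraries and 584520 and 719549 in Control libraries. All 10 pluripotency markers were found, summing to 1980.5 and 1883.7 FPKM in Chd1-/- cells against 2693.7 and 3373.2 FPKM in Control cells. The 5 of 8 fibroblast markers with values in both tables summed to 2.65 and 4.44 FPKM in Chd1-/- cells and to 2.69 and 8.29 FPKM in Control cells, and those of primitive endoderm (3 of 6) and trophectoderm (3 of 5) to between 2.91 and 6.86 FPKM in Chd1-/- and between 3.03 and 17.8 FPKM in Control cells. The 4 neural markers, Tubb3 among them, summed to 31.0 and 26.9 FPKM in Chd1-/- cells and to 48.0 and 33.5 FPKM in Control cells. In bulk RNA, fewer cells of a type and less RNA per cell cannot be told apart.

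The import genes were expressed at high levels. Their means over the 4 libraries spanned 4.71 to 483 FPKM, a 103-fold range, with a median of 52.1 FPKM, against a median of 9.07 FPKM over all tested genes, and 29 of 35 had more than 24.95 FPKM, the level that the top 25% of tested genes exceed. Hspd1, Hspe1, Tomm5, Timm23 and Hspa9 were the 5 highest and made up 52.6% and 50.3% of the group's summed FPKM in Chd1-/- cells and 55.1% and 51.9% in Control cells. The lowest were Timm17b and Tomm40l, each the minor form beside an abundant paralog. The order of levels was nearly the same in all libraries: across the 35 genes, which are not independent replicates, Spearman's rho between libraries lay between 0.968 and 0.987. Summed over the group, Chd1-/- cells had 3297.9 and 3009.4 FPKM and Control cells 3740.5 and 3985.5 FPKM, and the group stood at 88.2% and 75.5% of Control in sets 1 and 2, against 79.9% and 72.0% for the sum over all loci. FPKM of different sets come from tables made separately. Ratios were taken within a set, whereas statements on whether groups overlap set values of both tables side by side and so also carry differences between the tables.

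**Figure D1:**
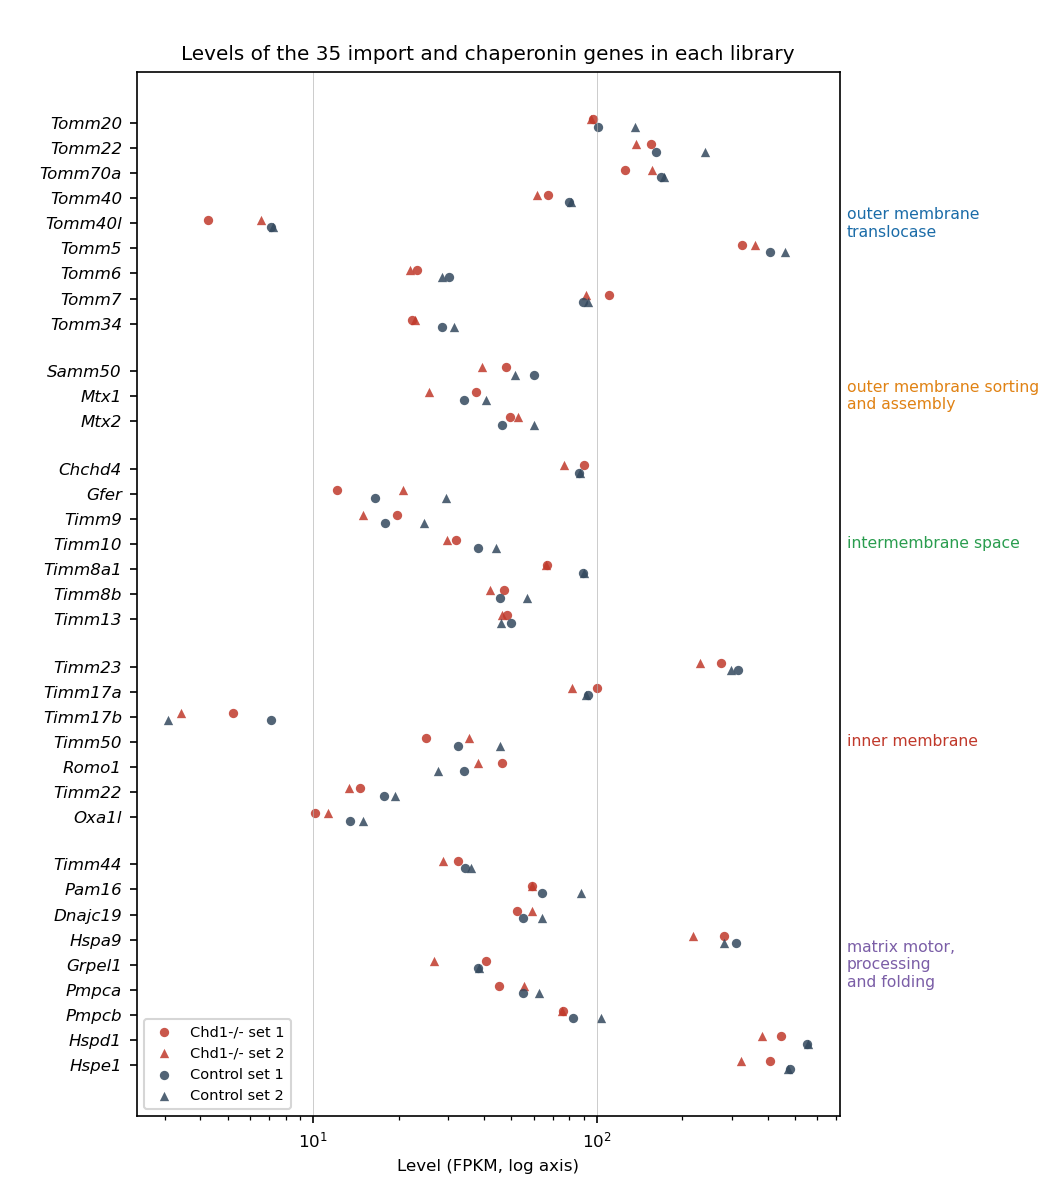
Level (FPKM, log axis) of each of the 35 genes in the 4 libraries, grouped by place in the import pathway; circles are set 1 and triangles set 2, red is Chd1-/- and dark blue Control. Genes differ far more from each other (4.71 to 483 FPKM in their means) than libraries do for a given gene, and Romo1 is the gene whose red points both lie to the right of both dark points.

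Most import genes had lower values in Chd1-/- cells. Within a set, the log2 ratio was taken as log2((Chd1-/- + 0.1)/(Control + 0.1)) of the FPKM values; on this scale the group's medians were -0.20 for set 1 and -0.38 for set 2 (mean -0.29 ± 0.13, SD, n = 2), against -0.46 and -0.33 over all tested genes and -0.37 and -0.35 over the 6851 other genes within the same range of level. Of the 35, 24 were lower in both, against 72.4% of all tested genes and 76.8% of other genes in the same range of level. Another 1 was higher in both (2.81% of all), and 10 went opposite ways, as did 2542 of all 10261. None of the 35 was at least 1.5-fold lower in both sets, a size reached by 10.2% of all tested genes and 7.31% of the other genes within the same range of level. On the FPKM scale, both Chd1-/- values lay below both Control values for 20 of 35 genes (52.6% of all tested genes). They lay above both for Romo1 (0.867% of all), while the groups overlapped for 14, as they did for 4779 of all 10261. Nothing is read from these counts, because the contrast took part in the choice of the genes. When values were expressed as a share of the library total, the direction of the group turned. Its median log2 ratios were then 0.12 and 0.09, with 15 genes higher in both sets (25.5% of all tested genes) and 1, Gfer, lower in both (22.4% of all), while the median over all genes became -0.14 and 0.14.

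**Figure D2:**
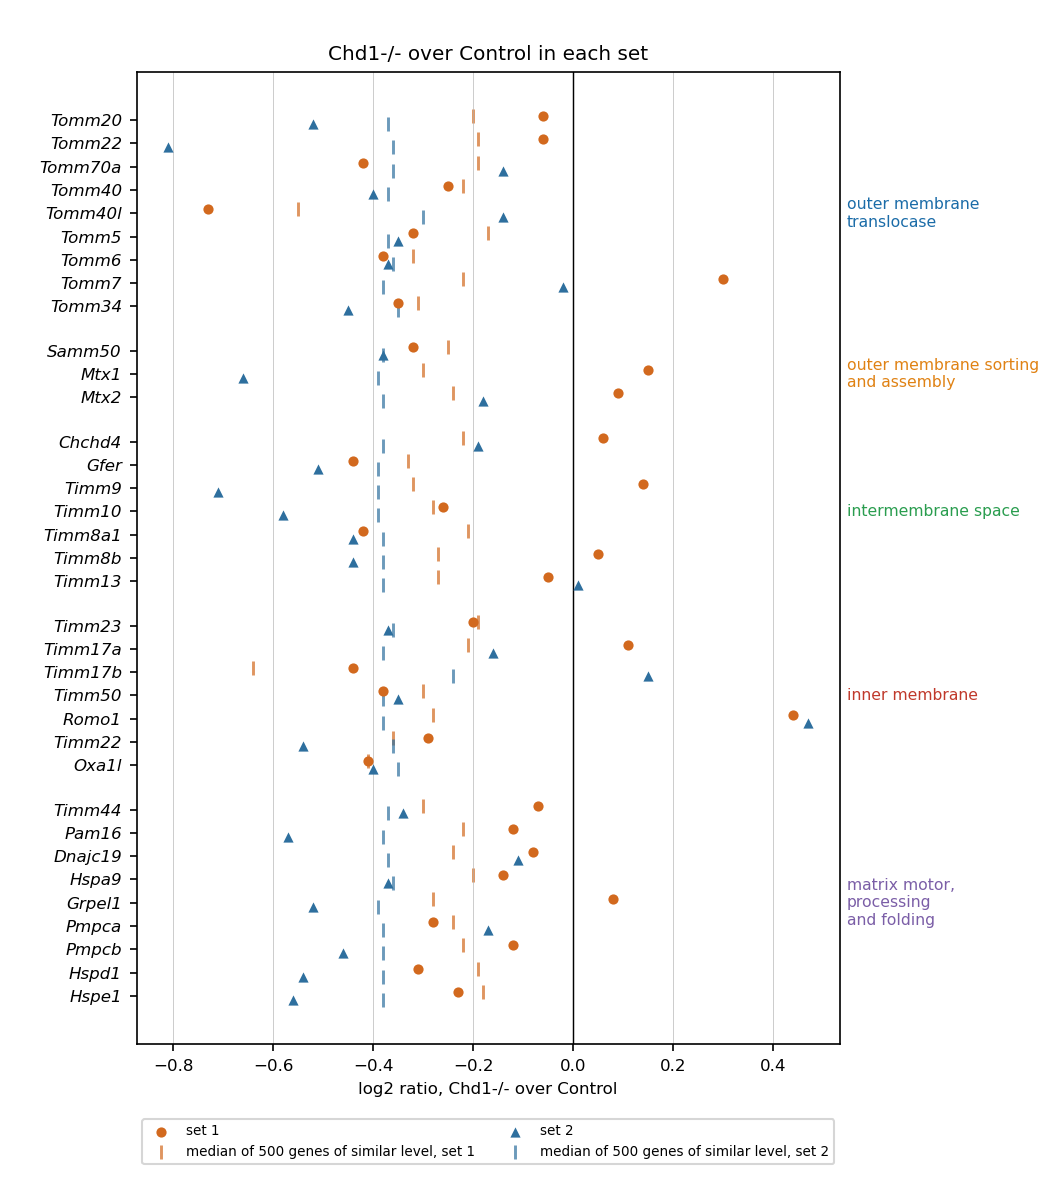
Log2 ratio of Chd1-/- over Control for each gene in set 1 (orange circles) and set 2 (blue triangles); vertical ticks are the median of the 500 tested genes nearest in level in the same set. Most points lie left of 0, and Romo1 lies at 0.44 and 0.47.

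Because ratios varied with level in these tables, each gene was also set beside the 500 tested genes nearest to it in mean log2 value. The group's median difference from these neighbours was 0.08 (set 1) and -0.01 (set 2). Of the 35, 9 lay above the median of their neighbours in both sets (26.4% of all tested genes did) and 9 below in both (26.9%). A further 12 lay above in set 1 and below in set 2, and 5 the other way. Shares of all tested genes were not computed for these mixed counts, so nothing is read from them. Romo1 and Tomm7, 2 of the 35, were within the highest 10% of the genes of similar level in both sets, as were 1.95% of all tested genes.

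Of the 9 genes of the outer membrane translocase group, 8 were lower in both sets, against 72.4% of all tested genes. Tomm40, the channel itself, stood at 67.1 and 61.6 FPKM in Chd1-/- cells against 79.7 and 81.2 FPKM in Control cells, with no overlap between the groups. Tomm40l, its less abundant paralog, had the lowest mean ratio of the group: 4.26 and 6.55 FPKM in Chd1-/- cells against 7.13 and 7.23 FPKM in Control cells, or 59.7% and 90.5% of Control. The Chd1-/- values of Tomm40l were lower in each set, but by very unequal amounts. Tomm5, a small subunit of the core complex and the third most abundant gene of the 35, stood at 325 and 361 FPKM in Chd1-/- cells and 407 and 459 FPKM in Control cells (log2 ratios -0.32 and -0.35), so both Chd1-/- values were below both Control values. Tomm6, another small subunit, had nearly the same ratios (-0.38 and -0.37). Its gene shares 777 bases with that of an antisense RNA, Tomm6os, in RefSeq. The libraries were strand-specific, but no source states that strand was used in counting, so Tomm6 is less certain.

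Tomm7, which stabilizes the PINK1 kinase at the outer membrane in human cells and modulates the translocase, differed from the other small subunits. Its values were 110.1 and 91.6 FPKM in Chd1-/- cells and 89.7 and 93.02 FPKM in Control cells, and the groups overlapped. Its log2 ratios were 0.30 and -0.02, above 97.8% and 92.0% of genes of similar level. Among the receptors, Tomm22, the central organizer, had 155 and 137 FPKM in Chd1-/- cells against 162 and 241 FPKM in Control cells. The groups did not overlap, the Control value of set 2 stood highest, and the log2 ratios of -0.06 and -0.81 were among the 3 most unequal of the 35 genes. The presequence receptor Tomm20 followed the same order (-0.06 and -0.52), and Tomm70a, the receptor for carrier proteins, the reverse (-0.42 and -0.14). Tomm34, a cytosolic cochaperone of import, had -0.35 and -0.45.

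In the sorting and assembly machinery, which inserts barrel-shaped proteins into the outer membrane, the core subunit Samm50 stood at 47.9 and 39.4 FPKM in Chd1-/- cells and at 60.0 and 51.5 FPKM in Control cells. Each Chd1-/- value of Samm50 was lower than both Control values. The metaxins Mtx1 and Mtx2, its partners, went opposite ways in the sets. Mtx2 had 49.4 and 52.8 FPKM in Chd1-/- cells against 46.3 and 59.9 FPKM in Control cells, and Mtx1 had 37.7 and 25.6 FPKM in Chd1-/- cells against 34.0 and 40.6 FPKM in Control cells. For both metaxins the groups overlapped, and Mtx1 had ratios of 0.15 and -0.66, a difference of 0.81 between the sets.

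Of the 7 genes of the intermembrane space, 3 were lower in both sets (72.4% of all tested genes). Gfer, the sulfhydryl oxidase that reoxidizes the import receptor Chchd4, had the lowest mean ratio of all 35 genes (-0.48 ± 0.05, SD, n = 2): 12.2 and 20.7 FPKM in Chd1-/- cells and 16.6 and 29.5 FPKM in Control cells. Its values were higher in set 2 for both genotypes, so the groups overlapped although each set showed a lower Chd1-/- value. Chchd4 itself stayed nearer to its Control, at 103.9% in set 1 and 87.9% in set 2.

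The small TIM chaperones carry hydrophobic precursors across the intermembrane space, as Timm9 with Timm10 and as Timm8 with Timm13. Timm13 had 48.1 and 46.3 FPKM in Chd1-/- cells and 49.9 and 46.0 FPKM in Control cells, the values closest to Control of the 35 genes (log2 ratios -0.05 and 0.01). Its partner Timm8a1 was lower by nearly the same amount in both sets, at 67.0 and 66.5 FPKM in Chd1-/- cells against 89.4 and 90.04 FPKM in Control cells. The Chd1-/- and Control values of Timm8a1 did not overlap, and those of Timm13 did. Timm9 differed most between the sets of all 35 genes, with 19.8 and 15.0 FPKM in Chd1-/- cells and 18.0 and 24.5 FPKM in Control cells (log2 ratios 0.14 and -0.71). Timm10 was lower in both sets (-0.26 and -0.58), while Timm8b, a second partner of Timm13, had 0.05 and -0.44.

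Of the 7 inner membrane genes, 4 were lower in both sets (72.4% of all tested genes) and Romo1 was higher in both (2.81% of all). Romo1 encodes a small inner membrane protein known as a modulator of reactive oxygen species, and its yeast counterpart Mgr2 is a subunit of TIM23. Its values were 46.2 and 38.2 FPKM in Chd1-/- cells against 34.0 and 27.5 FPKM in Control cells, so both Chd1-/- values lay above both Control values, at 136% and 139% of Control. The log2 ratio averaged 0.46 ± 0.02 (SD, n = 2), and Romo1 was above 98.6% and 99.8% of genes of similar level. It also has the shortest transcript of the group (464.5 bases, the median of GENCODE M21 transcripts).

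Timm23, a core subunit of TIM23, had 275 and 231 FPKM in Chd1-/- cells and 316 and 298 FPKM in Control cells, without overlap. Timm17a, its partner in TIM23, had 100.3 and 81.8 FPKM in Chd1-/- cells and 92.9 and 91.5 FPKM in Control cells, and the groups overlapped. The scarce paralog Timm17b went opposite ways in the sets (-0.44 and 0.15) at 3.09 to 7.11 FPKM, where ratios of genes of similar level were also wide apart between the sets (medians -0.64 and -0.24). Timm22, the channel of the carrier translocase, had the lowest mean log2 ratio of the inner membrane genes (-0.41): 14.6 and 13.4 FPKM in Chd1-/- cells and 17.8 and 19.5 FPKM in Control cells, without overlap. Timm50, the presequence receptor of TIM23, and Oxa1l, the insertase for proteins made inside mitochondria, had log2 ratios of -0.38 and -0.35 and of -0.41 and -0.40.

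In the matrix, 8 of 9 genes were lower in both sets, against 72.4% of all tested genes. Hspa9, the chaperone of the import motor, stood at 280.0 and 218 FPKM in Chd1-/- cells and at 309 and 281 FPKM in Control cells, a narrow gap between the groups. Its nucleotide exchange factor Grpel1 had 106% of Control in set 1 and 69.8% in set 2, and was the exception among the 9. Dnajc19, a J-domain cochaperone of the motor, had the mean ratio nearest to 0 of the 9: 52.3 and 59.2 FPKM in Chd1-/- cells against 55.2 and 64.1 FPKM in Control cells, with overlap between the groups. Pam16, which forms a pair with such J-domain proteins, had log2 ratios of -0.12 and -0.57, and the tether Timm44 had -0.07 and -0.34. The peptidase subunits Pmpca and Pmpcb stood at 82.6% and 92.3% of Control in set 1 and at 88.7% and 72.7% in set 2.

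The chaperonin genes were alike in level and in ratio. Hspd1 had 446 and 381 FPKM in Chd1-/- cells and 551 and 556 FPKM in Control cells, and Hspe1 had 409.5 and 322 FPKM in Chd1-/- cells and 479 and 473 FPKM in Control cells. For both genes the Chd1-/- values lay below both Control values, and the Control values of the sets were nearly equal. Their log2 ratios were -0.31 and -0.54 for Hspd1 and -0.23 and -0.56 for Hspe1, a little below the median of genes of similar level in both sets. Their annotated transcribed regions share 96 bases on opposite strands, and RefSeq names 5 pseudogenes of Hspd1, 7 of Hspe1 and 1 each of Hspa9 and Dnajc19, so reads may be shared and these single values are less certain.

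The proportions between partner genes within a library do not depend on how the libraries were scaled. Hspe1 stood at 0.919 and 0.844 of Hspd1 in Chd1-/- cells and at 0.870 and 0.852 in Control cells, with overlap. Timm13 stood at 0.717 and 0.697 of Timm8a1 in Chd1-/- cells and at 0.558 and 0.511 in Control cells. These groups did not overlap, and the proportion was 1.28 and 1.37 times that of Control. Timm13 over Timm8b, its second partner, was 1.02 and 1.11 in Chd1-/- cells and 1.10 and 0.807 in Control cells. That proportion overlapped and went opposite ways in the sets (0.927 and 1.37 times that of Control). Timm23 stood at 2.74 and 2.82 times Timm17a in Chd1-/- cells and at 3.40 and 3.26 times in Control cells, without overlap. Pam16 over Dnajc19 was 1.13 and 1.00 in Chd1-/- cells and 1.16 and 1.37 in Control cells, with a narrow gap in set 1. In all, 3 of the 13 proportions did not overlap between the groups (23.1%), against 24.9% over all pairs of tested genes. Those that overlapped included Timm10 over Timm9 (1.61 and 1.97 in Chd1-/- cells, 2.13 and 1.80 in Control cells), Timm17a over Timm17b (19.3 and 23.9 in Chd1-/- cells, 13.1 and 29.6 in Control cells) and Tomm40 over Tomm40l (15.8 and 9.41 in Chd1-/- cells, 11.2 in both Control libraries). These proportions come from the same contrast and were not tested.

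**Figure D3:**
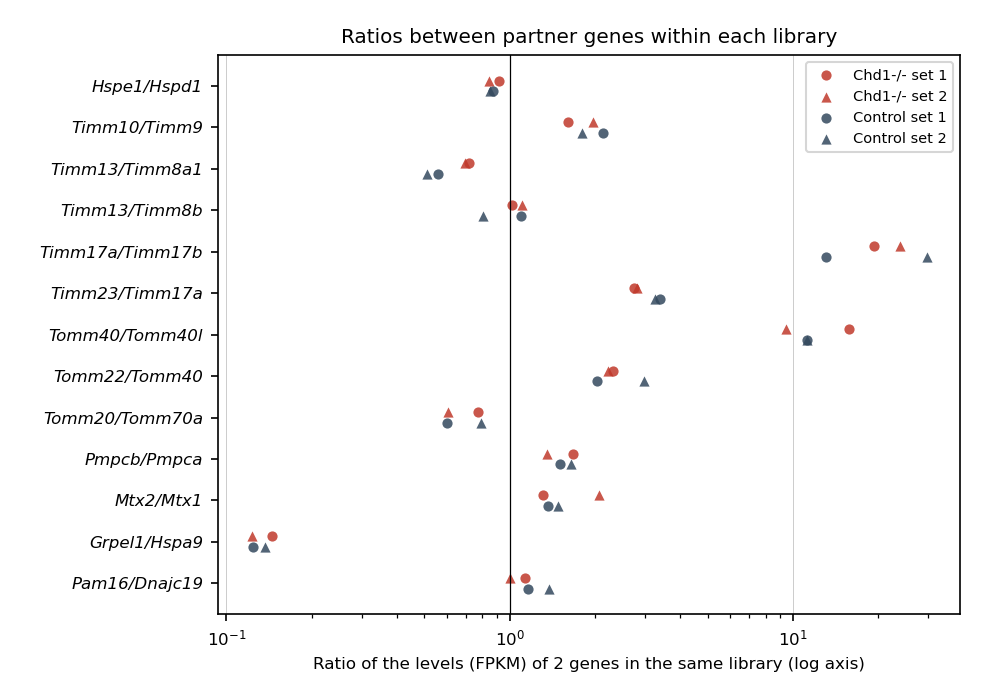
Ratio of the FPKM levels of partner genes within each library (log axis), for 13 pairs of one complex or of paralogs; red is Chd1-/-, dark blue Control, circles set 1 and triangles set 2. The red and dark points do not overlap for Timm13/Timm8a1 and Timm23/Timm17a, and in Pam16/Dnajc19 they are separated narrowly.

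Set 1 and set 2 gave different ratios for many of these genes. For 26 of the 35 the log2 ratio was higher in set 1 than in set 2, against 42.1% of all tested genes, and the median difference between the sets was 0.22, against -0.11 over all tested genes. Over genes other than these within the same range of levels, 50.1% had the higher ratio in set 1, and the median difference was 0.00. Over the 35 genes, Pearson's r between the ratios of set 1 and those of set 2 was 0.17 and Spearman's rho was -0.04, and without Romo1 r was -0.09. These are descriptions across genes that share libraries and scaling. By place, the medians of sets 1 and 2 were -0.32 and -0.37 for the outer membrane translocase, 0.09 and -0.38 for sorting and assembly, -0.05 and -0.44 for the intermembrane space, -0.29 and -0.35 for the inner membrane, and -0.12 and -0.46 for the matrix. Transcript length moved with the ratios of all genes: over 9625 tested genes with a GENCODE length, Spearman's rho between length and ratio was -0.40 for set 1 and 0.22 for set 2, against -0.18 and 0.15 over the 35 genes, whose median length of 1615 bases compares with 2662 over the tested genes. The part of length in the difference between sets was not tested.

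**Figure D4:**
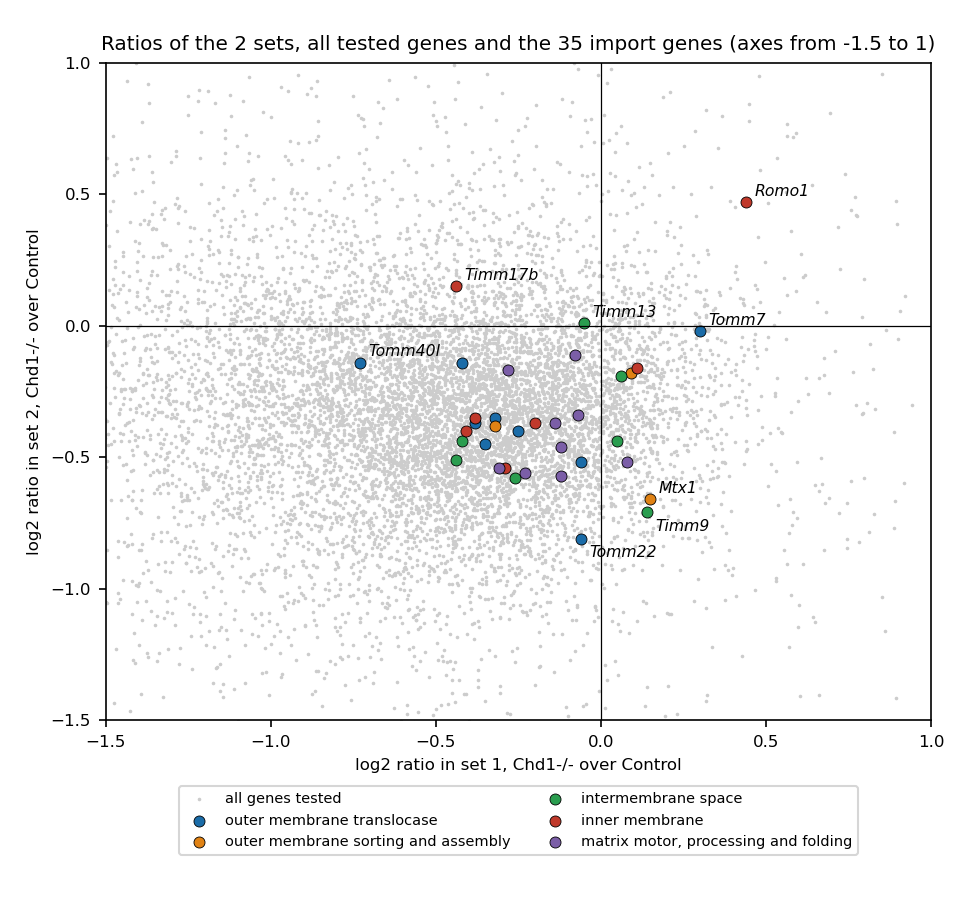
Log2 ratio of Chd1-/- over Control in set 1 (horizontal) and set 2 (vertical) for all tested genes (grey) and the 35 import genes (coloured by place); 704 of the 10261 genes lie outside the axes, which run from -1.5 to 1. Romo1 is alone among the coloured points in the upper right, and Timm9, Mtx1 and Tomm22 are the points with the widest gap between the sets.

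Other genes of the pathway, named in a list that holds none of the 35, were tested with limma in the fit over all 10261 genes. This list too was written with earlier results of these data known, which limits what its counts of calls can show. Of 50 names listed, 45 were tested, and 4 fell and 0 rose on the deposited scale (adjusted p under 0.05), against 9.8% and 0.0682% of all tested genes (9.87% either way). Their median log2 fold change was -0.30, against -0.41 over all genes. Cytosolic Hsp90, which hands precursors to Tomm70a, accounted for 2 of the calls. Hsp90ab1 had 478 and 391.9 FPKM in Chd1-/- cells and 839 and 603 FPKM in Control cells (log2 fold change -0.72, SE 0.18, limma adjusted p = 0.0037, n = 2 pairs). Hsp90aa1 had 1630.7 and 1345.4 FPKM in Chd1-/- cells and 2643.4 and 2234.4 FPKM in Control cells (-0.71, SE 0.21, limma adjusted p = 0.017). For both Hsp90 genes, both Chd1-/- values lay below both Control values, as they did for 52.6% of all tested genes.

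The other calls were in mitochondria. Hscb, a cochaperone of iron-sulfur cluster assembly, had 18.8 and 11.6 FPKM in Chd1-/- cells and 22.8 and 24.6 FPKM in Control cells (log2 fold change -0.67, SE 0.22, limma adjusted p = 0.031), with most of the difference in set 2. Chchd6, a subunit of the MICOS complex that shapes the cristae, had 19.0 and 11.5 FPKM in Chd1-/- cells and 28.6 and 20.4 FPKM in Control cells (-0.70, SE 0.22, limma adjusted p = 0.023). Both Chd1-/- values of each gene lay below both Control values (52.6% of all tested genes). By list, the calls were 2 of 6 cytosolic chaperones, 1 of 6 matrix chaperones and cochaperones, and 1 of 7 contact site and prohibitin genes. They were 0 of 7 other translocase and intermembrane space genes and 0 of 4 presequence peptidases. They were also 0 of 10 quality-control proteases and 0 of 5 outer membrane channels and insertases. Of all tested genes, 9.8% fell, and nothing is read from counts in lists this short. Timm21, a subunit of TIM23, had the highest log2 fold change of the 45 (0.44, SE 0.26), with 10.9 and 15.2 FPKM in Chd1-/- cells and 7.12 and 12.6 FPKM in Control cells, and it did not pass the test (limma adjusted p = 0.23).

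Relative to each set's median ratio, 0 of the 45 genes passed in limma (2 at an unadjusted p under 0.05), against 0.361% of all tested genes. On the deposited scale the calls depended on these choices: 0 of the 45 passed without the set block (2 at an unadjusted p under 0.05), with a common prior variance (3) or on shares of the library total (6). With a mean of at least 5 FPKM, 2 passed, Hsp90aa1 and Hsp90ab1, while Hscb and Chchd6 did not.

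**Figure D5:**
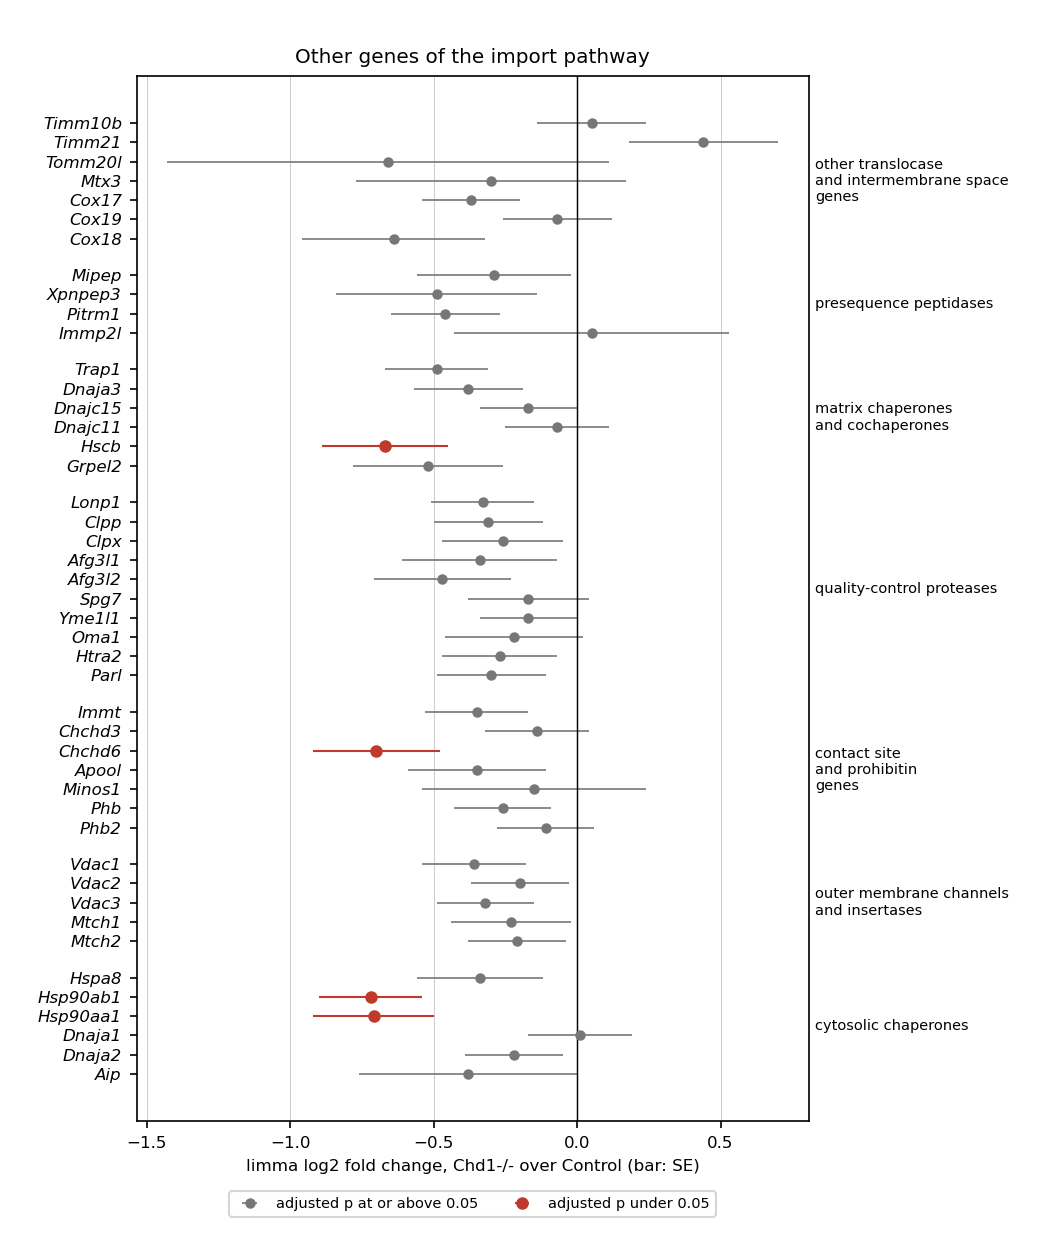
Limma log2 fold change of Chd1-/- over Control with its standard error for the 45 other genes of the import pathway, by list; red points passed an adjusted p of 0.05. Hsp90ab1, Hsp90aa1, Chchd6 and Hscb are the red points, all between -0.72 and -0.67.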

How the data were processed

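Transcripts were measured by RNA-seq in 4 libraries, Chd1-/- and Control in each of 2 sets. The deposited values were taken as FPKM; the headers give no unit, and it was inferred from the values and the tools. Those listed in the submitters' processing notes are Cuffdiff, Cufflinks 2.2.0, TopHat and TopHat2 2.0.10, with build mm9. No source used here gives the step of each tool, the annotation or the use of the spike-ins. Each table also holds a ratio column, which per the file headers is the authors' Chd1-/- over Control ratio and equalled the quotient of the values to within 4.97e-06. The lowest deposited value is 0.100 FPKM. Read depth is unknown, so no counting interval is given.

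Loci without a symbol (3939 and 3866), with several genes (147 and 144) or with a repeated symbol (156 and 190) were left out, and genes were joined by symbol. Genes with a mean of at least 1 FPKM were tested as log2(FPKM + 0.1), a scale that understates changes of low genes, with limma 3.58.1 in R 4.3.3 (two-sided, variance trend, Benjamini-Hochberg adjustment, threshold 0.05). The set entered as a block, since the sets have separate tables; a mean ± SD or a statement on overlap between groups crosses separately made tables. The fit has 1 residual degree of freedom, and its estimated prior is infinite, so a p-value uses the spread common to genes of like level and never the gene's own. Across genes, same-set libraries deviated together (r = 0.483). An exact permutation test of 2 pairs cannot go below p = 0.5. The labels do not say that the libraries of a group came from separate cultures beyond naming sets, so the spread may be partly technical.

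The 35 genes, the pathway list, the partner pairs and the motifs were chosen with earlier results of these data known, and the partner pairs and the Romo1 start region were added to the plan later than the rest. Values of all libraries are given for the highest and lowest mean ratio in each place of the pathway, the 5 highest levels, the 3 widest gaps between sets, Romo1, Hspd1 and Hspe1, and, outside this rule, for Tomm40, Timm8a1 and Timm17a where a neighbour is described. Start regions and gene overlaps are from RefSeq (GRCm38.p6) and lengths from GENCODE M21, matched by symbol. Figures were drawn with matplotlib 3.10.9. Alternatives were another pseudocount, other filters, scaling to library totals, other sizes and definitions of similar level, no block, other variance priors and leaving out a set or library.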

Additional observations from a re-analysis of the deposited data

How the results depend on the processing

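The group's median log2 ratio (-0.29, mean of the sets) and its median difference from genes of similar level (0.03) moved by less than the spread between sets under the other pseudocounts and filters. Divided by library totals, the median ratio turned to 0.10 and the number of genes lower in both sets became 1 instead of 24. Leaving out set 1 or set 2 gave a median ratio of -0.38 to -0.20, a difference from similar genes of -0.01 to 0.08, 14 to 21 genes above similar genes (9 in both sets together) and 1 to 3 genes at least 1.5-fold lower (0 together). In set 1 alone, 26 of the 35 were lower (74.3%, against 87.3% of all tested genes) and 2.86% at least 1.5-fold lower, against 39.7%. In set 2 alone, 32 were lower (91.4%, against 82.4%) and 8.57% at least 1.5-fold lower, against 23%. Of the 6851 other genes within the same range of level, 85.8% were lower in set 1 and 88.6% in set 2. Among those 6851, 1971 were at least 1.5-fold lower in set 1 and 1497 in set 2. Above genes of similar level were 60% in set 1 and 40% in set 2, against 49.8% and 49.7% of all tested genes.

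Over all genes, limma called 1013 on the deposited scale. With a mean of at least 5 FPKM it called 227, with library totals 87 (50 rose, 37 fell), and 0 without the replicate block (1043 at an unadjusted p under 0.05) or with a common prior variance (1718). Relative to the set medians it called 37, against 5 with a mean of at least 5 FPKM, 13 with each set's level trend removed, and 0 with a common prior variance (614 unadjusted). Without the replicate block it also called 0 (154 unadjusted). There each library's own median was subtracted in place of the set's median ratio, so that count does not show the block alone. Of the 45 other pathway genes, 4 were called. With a mean of at least 5 FPKM, 2 of 40 were called. Of the 45, 0 were called with library totals (6 at an unadjusted p under 0.05), without the replicate block (2 unadjusted) or with a common prior variance (3 unadjusted). Without the block and without any single library, limma called 0 genes in every case (502 to 1084 unadjusted on the deposited scale). A set left with 1 library gives no ratio, so the blocked test was not run in that form. The cause of these changes was not tested. Of the 35 genes' own mean ratios, 29 moved by more than their spread between sets with library totals, and 2, Tomm6 and Oxa1l, with a pseudocount of 1. These 2 moved only from -0.37 to -0.36 and from -0.40 to -0.38. They are counted because their ratios were nearly the same in both sets (SD 0.01 or less).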
